A study of Mus musculus with 9 samples.

Results

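The control cultures of mouse cytotoxic T lymphocytes (CTL) are described here by the signal of each gene on their arrays. They are the 3 arrays of DMSO-treated cells among the 9 arrays of the study, and were chosen by their labels alone. The cells came from spleens of P14-TCR mice, labelled wild type, in which CD8 T cells carry 1 transgenic receptor for the viral peptide gp33-41. Splenocytes were stimulated with that peptide, interleukin 2 and interleukin 12 for 48 h and then grown for 96 h more with both cytokines, so that RNA was taken on day 6. DMSO, the solvent of the drugs, was present for the last 48 h. The other 6 arrays held cells of the same 3 spleens that received an inhibitor of the kinase mTOR over that time, 20 nM of rapamycin on 3 arrays and 1 uM of KU-0063794 on 3. Each spleen was 1 biological replicate, and the labels describe no sorting of CD8 cells, so every value is that of a whole culture. In such bulk samples fewer cells of a type and less RNA per cell cannot be told apart.

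CTL kill infected or transformed cells by releasing granules that hold perforin, which opens membranes, and granzymes, the proteases that enter through it. A naive CD8 T cell that meets its peptide enlarges, divides quickly, shifts to aerobic glycolysis and turns on factors such as T-bet, encoded by Tbx21, and BLIMP-1, encoded by Prdm1. Interleukin 2 sustains growth and granzyme expression in such cultures, and interleukin 12 promotes interferon gamma.

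Values are log2 signals of Affymetrix probe sets, and where several read 1 of the 18193 genes, the one highest on average over the control arrays stands for it. A gene is called above background when its signal passed 1.25 log2 on all 3 arrays. That level is the 95th percentile of 35 genes restricted to non-lymphoid tissues, whose median was 0.29. Of all genes, 8067 (44.3%) were above it on all 3 arrays, 739 on 1 or 2 arrays and 9387 on none. The counts of list members below are to be read against these 44.3%. Just inside the level by its mean lay 4930563E22Rik and just outside it Zfp160, at 1.25 both. Signals also depend on how well a probe set binds its target, so a rank orders signals and not copies of RNA per cell. The median of all genes was 0.99, and the top 1%, 5% and 10% of genes began at 8.70, 6.63 and 5.56 log2. Array medians were all 0.48, between 8349 and 8495 genes passed the level on each array, and pairs of arrays correlated across genes with r of 0.992 to 0.995, genes not being independent replicates. Low signals often repeated to the last digit between arrays (5721 to 7571 probe sets per pair), so an SD near 0 at background is no measure of precision. Unrelated genes also shared a value, such as 1.31 for Ahrr and Rapgef5 in spleen 1 and Acpp in spleen 2. That value lies above the level, so genes that hold it count as above background here and in the lists. The control probe sets differed somewhat between arrays: the B1 repeat read 8.65, 7.98 and 7.96 for spleens 1, 2 and 3, and 18S ribosomal RNA 7.42, 7.79 and 6.75.

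**Figure D1:**
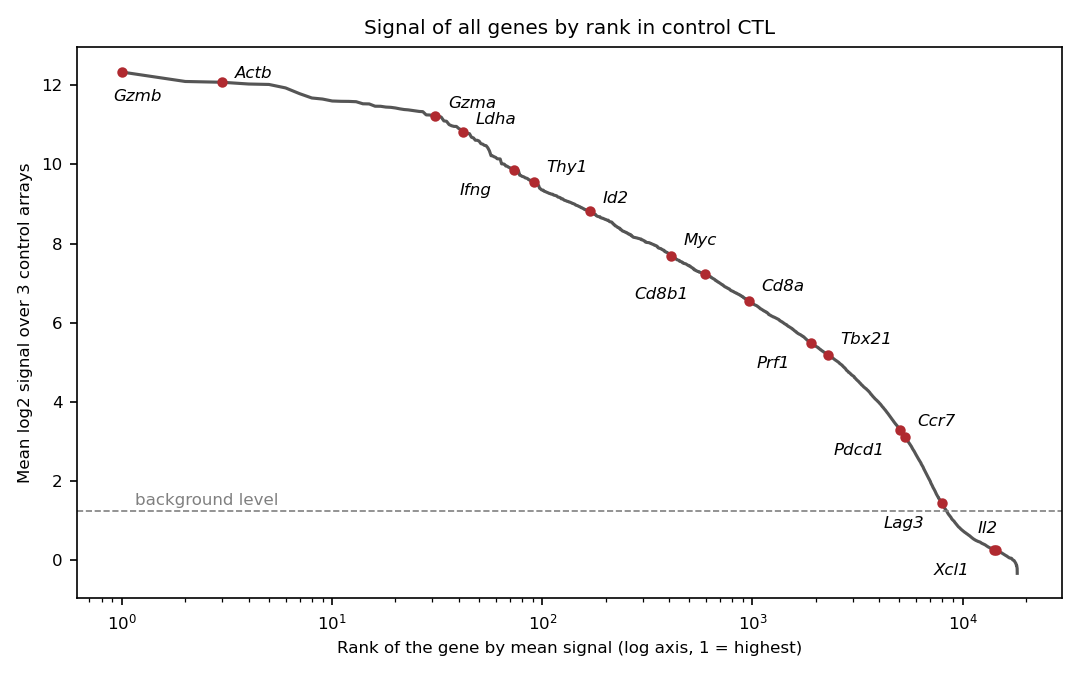
Mean log2 signal of each of 18193 genes over the 3 control arrays (vertical axis) against its rank (horizontal axis, log scale, 1 is the highest), with 17 genes marked and the background level of 1.25 log2 as a dashed line. Gzmb stood at rank 1, Ifng at rank 73, Prf1 at rank 1891, and Il2 and Xcl1 lay below the background level.

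The highest signal on every array was that of Gzmb, granzyme B, the protease that starts apoptosis in target cells. It read 12.38, 12.27 and 12.34 in spleens 1, 2 and 3, a mean of 12.33 ± 0.06 (SD, n = 3 arrays, as for all SDs that follow). The next 5 ranks were held by housekeeping genes of the actin skeleton and of translation. Tmsb10 (12.09 ± 0.04), Actb (12.07 ± 0.02) and Tmsb4x (12.03 ± 0.05) encode the actin-binding thymosins and beta actin. Rpl41 (12.02 ± 0.06) is a ribosomal protein, and Eef1a1 (11.93 ± 0.03) brings aminoacyl tRNAs to the ribosome. Tpt1, at 11.79 ± 0.01, followed. Among the 30 genes with the highest signal only Gzmb, the actin genes, Tpt1 and Lgals1 (11.53 ± 0.06), which encodes galectin 1, were not part of the translation machinery. The other members of that top group were Eef1a1 and genes of ribosomal proteins, from Rpl41 to Fau (11.24 ± 0.01).

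Cytosolic ribosomal proteins, taken by the pattern of their symbols and so without Fau, took 34 of the 100 highest ranks. Of 47 measured, 42 were above background on all 3 arrays, their median was 10.97, and 5 were above it on no array. They were also the steadiest large family, with a median SD of 0.043 against 0.137 over the 8390 genes whose mean was above background. SDs were smaller at high signal, with a median of 0.098 among the 1678 of those genes with the highest signal. Many genes of this family start transcription within a run of pyrimidines, the 5' terminal oligopyrimidine tract through which mTOR controls their translation. Stretches of RefSeq (GRCm38.p6) from 20 bases before to 20 bases after the annotated start are shown for 5 members in the top 30. CTTTC and CTTTT are in capitals, and these 5 were picked because they hold a match. They are Rplp2 at chr7:141447631-141447670 (+ strand), Rpl13a at chr7:45128726-45128765 (-), Rpl7a at chr2:26910787-26910826 (+), Rpl4 at chr9:64173367-64173406 (+) and Rps10 at chr17:27635225-27635264 (-).
Rplp2: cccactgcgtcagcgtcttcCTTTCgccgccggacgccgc
Rpl13a: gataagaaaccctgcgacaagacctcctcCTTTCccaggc
Rpl7a: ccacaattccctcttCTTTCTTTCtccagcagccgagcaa
Rpl4: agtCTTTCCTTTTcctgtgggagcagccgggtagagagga
Rps10: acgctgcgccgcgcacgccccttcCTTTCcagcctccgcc
Within this window and on the gene's strand, CTTTC or CTTTT was found in 14 of the 41 ribosomal protein genes with a sequence (34.1%). It was found in 4 of 55 other genes of the top 100 (7.27%) and in 1393 of 14452 array genes (9.64%). The motif was chosen with these sequences in view, a match is a description only, and annotated starts can be inexact. In the stretches shown, the match touches the annotated start in Rplp2 and Rpl7a. It lies before the start in Rpl4 and after it in Rpl13a and Rps10.

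The cultures read as T cells by their surface genes. Of the 13 measured genes of the T cell identity list, 12 were above background on all 3 arrays, with a median of 6.55. Thy1, a surface glycoprotein of T cells, read 9.59, 9.52 and 9.54, and Cd3d, a signalling chain of the receptor, 9.48, 9.47 and 9.56. Cd3g read 8.42 ± 0.13, the zeta chain gene Cd247 6.10 ± 0.15 and Cd3e 4.85 ± 0.12. Both chains of the CD8 co-receptor were present: Cd8b1 at 7.47, 6.86 and 7.36, and Cd8a at 6.89, 6.13 and 6.63, each lowest in spleen 2. The 5 probe sets of Cd8a had means from 2.68 to 6.55, which shows how far the choice of probe set sets a level. Cd27, a receptor of naive and memory cells, was near background at 1.89 ± 0.11, and the beta variable segment Trbv13-2 was below it at 0.76 ± 0.09. The segments Trbv13-1, Trbv13-3, Trav14-1 and Trav14-2 and the constant genes Trac, Trbc1 and Trbc2 had no probe set with that symbol alone. The chains of the transgenic receptor were therefore not assessed. Together with Gzmb, Prf1 and Ifng, described next, all 5 markers of effector CTL were above background on every array, as were 44.3% of all genes. These values go with the label, but passing the level is a weak criterion.

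Genes of other splenic cells were mostly at background. Of 23 myeloid markers only Csf1r passed on all 3 arrays, at 1.87 ± 0.12, while Lyz2 (0.20), Itgam (0.06) and S100a9 (0.06) did not on any. Of 8 CD4 and regulatory T cell markers only Zbtb7b passed (1.88 ± 0.20). Cd4 itself read 0.95, 1.05 and 1.3, passing only in spleen 3, and Foxp3 had a mean of 0.12. Of 10 stromal markers Des (1.72) and Pecam1 (1.49) passed, of 8 erythroid and platelet markers Itga2b (1.36) and of 3 gamma delta T cell markers Cd163l1 (2.11 ± 0.16). The gamma delta list held 7 names, of which only these 3 were measured. The gamma chain segments Trgv1 (3.21, 4.97 and 5.30) and Trgv4 (6.04, 7.46 and 7.62), not on that list, were above background on all 3 arrays. The B cell list was the exception. Ighm, the heavy chain of immunoglobulin M, read 6.96, 9.28 and 7.85, and Jchain, which joins immunoglobulin chains in plasma cells, 0.94, 5.38 and 3.12. The light chain segment Iglv1 read 0.68, 3.62 and 1.40. All 3 were highest in spleen 2 and lowest in spleen 1. H2-Ab1, an MHC class II chain, ran otherwise at 4.25, 3.31 and 2.70, and Cd79b read 1.26, 2.36 and 1.78. The B cell genes Cd79a (0.76), Pax5 (0.49), Cd22 (0.38) and Ms4a1 (0.10) were above background on no array. In all, 3 of 18 B cell markers passed on all arrays, and the sum of their linear signals was 169, 712 and 271 in spleens 1, 2 and 3. Over the inhibitor arrays it lay between 182 and 729 with rapamycin and between 207 and 699 with KU-0063794. Most of the sum came from the probe set that stands for Ighm. With the median over its probe sets, Ighm stood only at percentile 49.94 among all genes, so the sum is no measure of B cell content. Every result below that sets spleen 2 apart stands beside these values, and their part in it was not tested. Of 7 markers on the NK cell list, Gzma, Eomes and Fcer1g passed, all of which activated CTL can carry. Ncr1 (0.57), Tyrobp (0.28) and Klra8 (-0.13), more typical of NK cells, did not.

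The granule genes spanned the whole range of signals, and 25 of 27 were above background on all 3 arrays, with a median of 5.24. The cargo genes came highest. Gzma, granzyme A, read 11.56, 10.85 and 11.26, at rank 31. Srgn, the proteoglycan core on which granzymes are packed, read 9.88 ± 0.07, and Nkg7, a granule membrane protein, 9.56, 8.76 and 9.43. Gzmc, one of the granzymes encoded beside Gzmb, read 9.23, 8.17 and 8.67. Perforin, encoded by Prf1, read 6.79, 4.88 and 4.81, at rank 1891, so that spleen 1 stood alone at the top and spleens 2 and 3 were close together. A second probe set of Prf1 had a mean of only 0.58, so this level in particular depends on the probe set. Ctsw (7.45 ± 0.33) and Ctsc (6.35 ± 0.08) encode cathepsins W and C, the latter the enzyme that activates granzymes.

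The remaining granzymes of the Gzmb neighbourhood were lower on average and much more variable. Gzmd read 8.07, 5.76 and 6.16, Gzme 6.55, 4.28 and 4.61, Gzmf 6.48, 4.47 and 5.31, and Gzmg 7.40, 4.83 and 5.38. All 4 were highest in spleen 1 and lowest in spleen 2. These genes are close in sequence, and whether their probe sets bind each other's RNA was not tested. Gzmk, a granzyme of less differentiated cells, read 3.50, 1.58 and 2.70, whereas Gzmm (0.71 ± 0.01) was above background on no array, nor was the adhesion receptor gene Crtam (0.39). The death ligand gene Fasl read 6.26, 3.95 and 5.51, and Tnfsf10, which encodes TRAIL, 1.70 ± 0.14. Serpinb9 and Serpinb6b, which encode inhibitors that shield the killer cell from its own granzymes, read 6.59, 4.47 and 5.66, and 6.22, 3.21 and 5.21. Both were again highest in spleen 1 and lowest in spleen 2. The machinery that docks and fuses granules varied less: Lamp2 (4.81 ± 0.03), Stxbp2 (4.54 ± 0.10), Unc13d (4.14 ± 0.12) and Lyst (3.19 ± 0.15) had SDs of at most 0.15. Rab27a (4.90 ± 0.49) and Stx11 (2.37 ± 0.55) varied more.

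**Figure D2:**
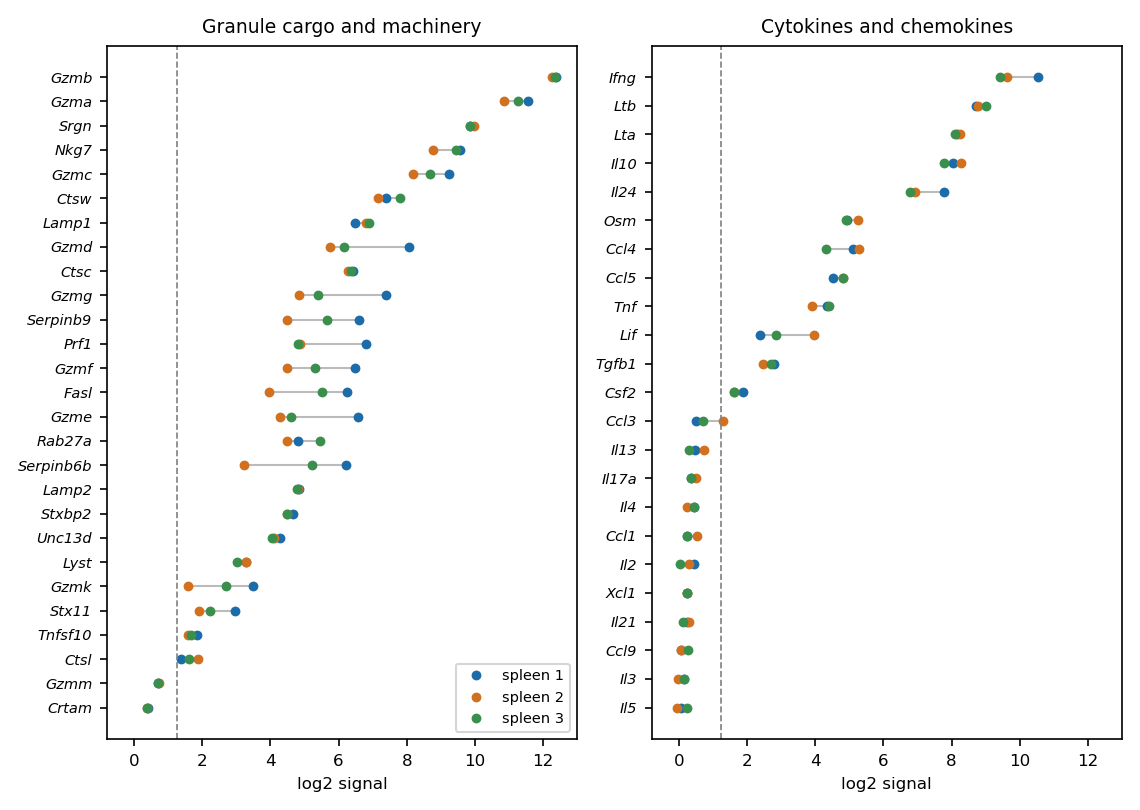
Log2 signal (horizontal axis) of each gene of the granule list (left) and of the cytokine and chemokine list (right) on the 3 control arrays, 1 colour per spleen, with the background level as a dashed line. Gzmb and Srgn had almost the same signal in all spleens, whereas Gzmd to Gzmg, Prf1, Fasl, Serpinb9 and Serpinb6b were highest in spleen 1.

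Promoters of some granule genes are shown, picked because they hold a short motif. TGTGGT is the core bound by RUNX factors, which take part in CTL differentiation, and TGAGTCA is the site of AP-1. Capitals mark TGTGGT, its reverse complement ACCACA, or TGAGTCA, in RefSeq sequence of GRCm38.p6. Gzmb is shown from 110 bases before the annotated start up to it (chr14:56262335-56262444, - strand). The others are 40 bases around their match: Gzmc at chr14:56234743-56234782 (-), Gzma at chr13:113101009-113101048 (-), Prf1 at chr10:61297689-61297728 (+) and Nkg7 at chr7:43437038-43437077 (+).
Gzmb: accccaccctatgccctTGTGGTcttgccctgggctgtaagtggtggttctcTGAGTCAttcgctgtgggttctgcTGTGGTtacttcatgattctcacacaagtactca
Gzmc: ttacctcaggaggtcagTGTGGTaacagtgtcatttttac
Gzma: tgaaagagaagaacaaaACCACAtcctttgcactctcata
Prf1: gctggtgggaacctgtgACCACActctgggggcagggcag
Nkg7: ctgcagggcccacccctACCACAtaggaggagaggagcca
Within 250 bases before the start and on either strand, TGTGGT was found in 13 of the 24 granule genes with a sequence (54.2%) and in 1985 of 14452 array genes (13.7%). Among the 55 genes of the top 100 that have a sequence and are not ribosomal proteins, some of them granule genes, it was found in 13 (23.6%). All 6 granzymes of the chromosome 14 group held it, but those genes arose by duplication and are not independent. Among the other 18 granule genes it was found in 7 (38.9%). TGAGTCA was found in 1 of the 24 granule genes, Gzmb, in 6 of those 55 (10.9%) and in 684 of all (4.73%). The motifs were searched after the Gzmb promoter had been read, and a match is a description, not a binding site.

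Most cytokine genes were either well above background or at it. Of 23 measured, 12 were above background on all 3 arrays (52.2%, near the 44.3% of all genes) and 10 on none. Ifng, interferon gamma, read 10.54, 9.62 and 9.44, at rank 73, with spleen 1 above the other two. The membrane and soluble lymphotoxin genes Ltb (8.84 ± 0.16) and Lta (8.17 ± 0.07) followed. Il10, an inhibitory cytokine, read 8.03, 8.27 and 7.78, at rank 313, and Il24, of the same cytokine family, 7.78, 6.94 and 6.79. Osm (5.03 ± 0.20), Ccl4 (4.90 ± 0.51), Ccl5 (4.72 ± 0.17) and Tnf (4.22 ± 0.27) were intermediate. Lif read 2.38, 3.97 and 2.85 and Csf2, which encodes GM-CSF, was near background at 1.70 ± 0.15. Il2 (0.26), Il4 (0.37), Il13 (0.49), Il17a (0.41), Il21 (0.21) and Xcl1 (0.25) were above background on no array. Ccl3, encoded next to Ccl4, passed only in spleen 2, at 1.31. A gene read by a single probe set at background may be missed by that probe set.

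Of 25 cytokine receptor genes, 19 were above background on all arrays. Il2ra, the alpha chain that gives high affinity for interleukin 2, read 8.11, 8.27 and 8.0, and Il2rb, which signals with it, 6.70, 6.55 and 6.06. Il12rb1, a chain of the interleukin 12 receptor, read 5.56 ± 0.29, but Il12rb2, its signalling partner, read 1.09, 1.05 and 1.88 and passed only in spleen 3. Il7r, usually low on effector cells, read 7.67, 7.53 and 7.38 at rank 464. Il18r1 (6.95 ± 0.38) and Il18rap (4.89 ± 0.33), both chains for interleukin 18, were above background, as were Ifngr1 (7.09 ± 0.15) and Tgfbr2 (6.87 ± 0.20). Ifngr2, the partner of Ifngr1, passed only in spleen 3, at 1.33, and Il1r1 (0.15) and Il9r (0.30) on no array. Downstream, 18 of 20 JAK, STAT and SOCS genes were above background. The feedback genes Socs2 (7.45 ± 0.25) and Cish (7.06 ± 0.17), known targets of interleukin 2 through STAT5, were the highest of the list. Jak1 (6.89 ± 0.18) and the phosphatase gene Ptpn2 (6.76 ± 0.13) came next. With the median over its probe sets Socs2 stood at percentile 65.15 among all genes, so its place depends on the probe set.

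Proximal T cell receptor signalling genes were present in 28 of 29 cases, with a median of 4.40. The adaptors Lat (7.38 ± 0.09) and Lcp2 (7.19 ± 0.12) led, followed by the phosphatase gene Ptpn22 (6.41 ± 0.38) and the kinase gene Prkcq (6.29 ± 0.06). Egr2, an early gene of receptor stimulation, was at background on all arrays (0.13 ± 0.13).

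Costimulatory receptors were above background in 13 of 20 cases. Cd48 (8.15 ± 0.16), Tnfrsf18 (7.59 ± 0.33), which encodes GITR, Icos (7.58 ± 0.30) and Cd28 (6.55 ± 0.14) were highest. Tnfrsf9, which encodes 4-1BB, read 7.44, 5.47 and 6.23. The ligand genes Cd40lg (0.46) and Cd70 (0.07) and the adhesion receptor gene Cd226 (-0.11) were above background on no array. Inhibitory receptors were above it in 11 of 16 cases, but none reached the top 5% of genes, and their median was 2.11. Ctla4, a competitor of CD28, read 5.97, 6.46 and 5.97. Cd96 (5.18 ± 0.58), Vsir (5.16 ± 0.32) and Cd160 (4.62 ± 0.29) came next, and Havcr2, which encodes TIM-3, read 5.52, 3.45 and 3.93. Pdcd1, which encodes PD-1, was low at 3.44, 3.29 and 3.17, and Lag3 was just above background at 1.65, 1.38 and 1.31. Tox, a factor tied to exhaustion (0.36 ± 0.09), Btla (0.83) and Cd200 (0.23) were above it on no array.

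NK type receptors were present in 5 of 15 cases (33.3%), against 44.3% of all genes. Klrd1, which encodes CD94, read 6.99, 6.09 and 8.20, with spleen 3 above the other two, Klrk1, which encodes NKG2D, 6.89 ± 0.28, and Klrc1, which encodes NKG2A, 5.41, 4.40 and 5.33. Klrg1, a mark of terminal effector cells, is counted among the 5 but read 1.31 on all 3 arrays, barely over the level. This is the value that unrelated genes share, so its pass says little. The Ly49 receptor genes Klra1 (-0.15), Klra7 (0.00) and Klra8 (-0.13) were at background.

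Homing receptors were above background in 7 of 18 cases (38.9%), near the 44.3% of all genes. Cxcr6, which guides T cells into tissues such as the liver, read 8.44, 8.20 and 8.52, at rank 234. Ccr2 (5.74 ± 0.24), Gpr18 (5.72 ± 0.41), Gpr183 (5.63 ± 0.14) and S1pr4 (4.33 ± 0.19) were intermediate. Cxcr3, the receptor for interferon-induced chemokines, read 2.52, 4.61 and 4.12, with spleen 1 lowest. The lymph node receptor gene Ccr7 read 2.61, 3.54 and 3.21, and S1pr1, which lets cells leave lymphoid organs, passed only in spleen 2, at 1.3. Cx3cr1 (0.66), Ccr9 (0.21), S1pr5 (0.19) and Cxcr5 (0.00) were above background on no array. Of 22 integrin, adhesion and migration genes, 14 were present. Vim, the intermediate filament vimentin, read 11.22 ± 0.09 at rank 32. Both chains of LFA-1, Itgal (7.46 ± 0.14) and Itgb2 (7.43 ± 0.26), Selplg (7.23 ± 0.07), Cd44 (7.14 ± 0.17), a mark of activated cells, and Itgav (6.71 ± 0.12) were among the top 5%. With the median over its probe sets Itgav stood only at percentile 39.34. Itgae, which encodes CD103, read 1.55, 2.82 and 2.59, and Itga1 (0.20), Itga2 (0.22) and Itgam (0.06) were at background. All 21 genes of the cytoskeleton list were above background, with a median of 8.13 and 17 of them in the top 5% of genes.

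Both effector and memory transcription factors were present. Of 22 effector factors, 20 were above background on all arrays, with a median of 5.20. Id2, an inhibitor of E proteins needed for effector cells, read 9.42, 8.35 and 8.69. Hif1a, the oxygen-sensing factor that drives glycolytic genes (8.60 ± 0.21), Hopx (8.91, 7.90 and 8.37) and Batf3 (8.02 ± 0.06) were also in the top 2% of genes. Runx3, which fixes the CD8 lineage, read 6.49 ± 0.16, and Irf4 5.21 ± 0.23. Tbx21 read 5.27, 5.04 and 5.27 and Prdm1 4.28, 5.08 and 4.42. Eomes, a relative of Tbx21, was far more variable at 6.17, 3.71 and 5.22, again highest in spleen 1 and lowest in spleen 2. Zeb2, a factor of terminal effector cells, was above background on no array (0.66, 0.48 and 0.41 over 5 probe sets, the highest shown).

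Of 21 naive and memory factors and quiescence genes, 20 were above background, with a median of 4.14. Satb1 (8.41 ± 0.25), Btg1 (8.24 ± 0.35), Ets1 (6.61 ± 0.17) and Ikzf1 (6.40 ± 0.05) led. Myb (6.00 ± 0.29) and Lef1 (5.83 ± 0.11), which act in less differentiated cells, were within the top 10% of genes. Id3, which opposes E proteins in memory precursors, read 2.60, 4.22 and 3.82, lowest where Id2 was highest. Bach2 read 2.91, 1.53 and 2.87. Foxo1 (4.14 ± 0.40) was above background, but its target Klf2, which keeps cells quiescent, was near it at 1.74 ± 0.08, and Bcl6 (0.39) was above it on no array. Factors of other lineages passed in 5 of 17 cases, with Cebpb (6.14 ± 0.15) well above the others. Foxp3 (0.12), Ebf1 (0.19), Spi1 (0.74) and Zbtb16 (0.63) were at background, and Gata3 was just over it (1.44 ± 0.11).

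**Figure D3:**
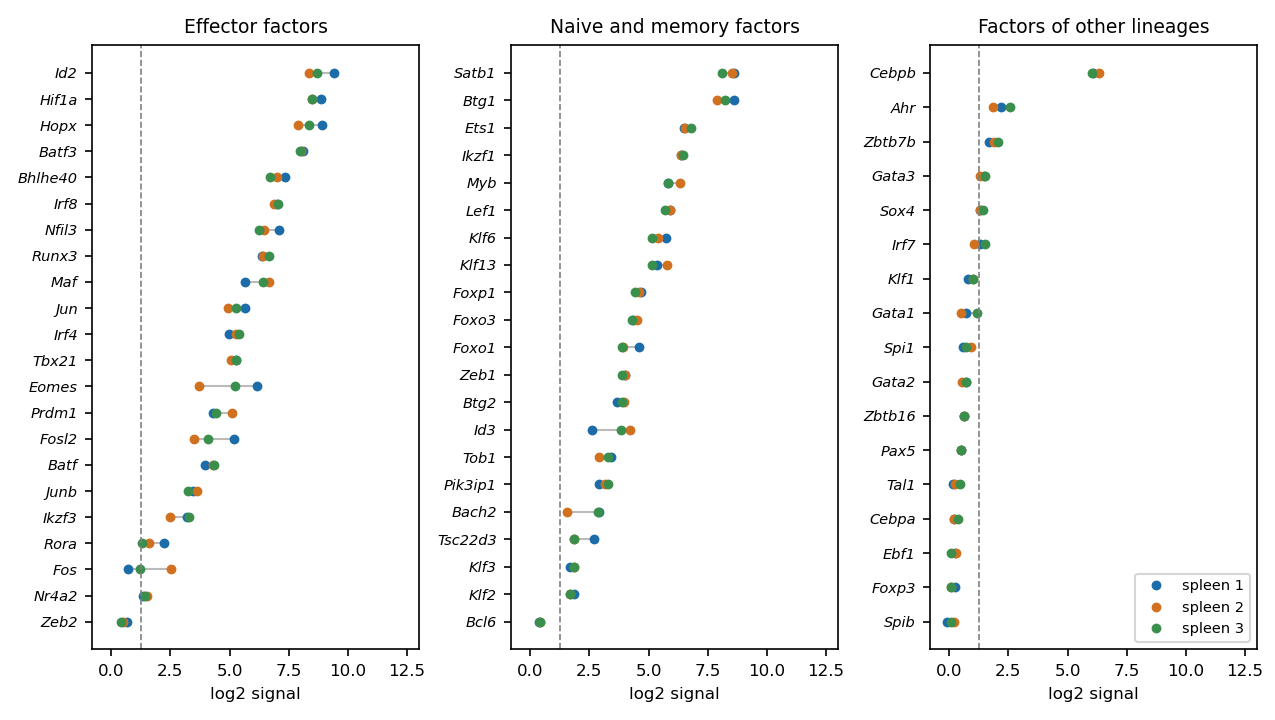
Log2 signal (horizontal axis) of effector factors (left), naive and memory factors (middle) and factors of other lineages (right) on the 3 control arrays, 1 colour per spleen, with the background level as a dashed line. Of these lists 20 of 22, 20 of 21 and 5 of 17 genes were above it on all 3 arrays, and Eomes had the widest spread of the effector factors.

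In the MYC network 11 of 12 genes were above background. Myc, which drives growth and metabolism after activation, read 7.75, 7.85 and 7.49, its partner Max 4.0 ± 0.03, and the antagonists Mxi1 and Mxd1 6.27 ± 0.16 and 4.24 ± 0.71. Mycn read 5.69 ± 0.31 and Mycl was at background (0.25).

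Of 29 glycolytic genes and transporters measured, 23 were above background and 11 were in the top 5%, with a median of 5.28. Ldha, the lactate dehydrogenase of glycolytic cells, read 10.96, 10.83 and 10.67, at rank 42, while Ldhb read 2.24 ± 0.21 and Ldhc was at background. Pgk1 (10.47 ± 0.16), Aldoa (9.92 ± 0.28), Tpi1 (9.20 ± 0.13), Pgam1 (8.0 ± 0.19) and Pkm (7.92 ± 0.19) were in the top 2%. Hk2, the inducible hexokinase (7.35 ± 0.07), and Slc2a1, the main glucose transporter of activated T cells (7.71, 7.22 and 7.03), were in the top 3%. Slc2a3, a second transporter, read 7.23, 6.51 and 5.87. Of the lactate exporters Slc16a1 read 6.88 ± 0.40, while Slc16a3 was above background on no array (0.95). Forms known from other tissues fell on both sides of the level. Pgam2 (0.93), Eno2 (0.50), Slc2a4 (0.99) and Slc2a2 (0.00) were at background, whereas the brain aldolase gene Aldoc (7.09, 6.62 and 6.36), the muscle enolase gene Eno3 (3.17 ± 0.04) and the muscle phosphofructokinase gene Pfkm (1.57 ± 0.13) were above it. A second probe set of Aldoc had a mean of 0.77, below the level.

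Most listed genes of other growth pathways were above background, against 44.3% of all genes. Nucleotide and pentose phosphate enzymes passed in 22 of 23 cases, led by Tkt (9.70 ± 0.04), Rrm2 (8.76 ± 0.14), which makes deoxynucleotides, Paics (7.26 ± 0.06) and Taldo1 (7.24 ± 0.12). Amino acid genes passed in 21 of 23, led by Odc1 (8.99 ± 0.07), the entry enzyme of polyamine synthesis, and Phgdh (8.13 ± 0.06), that of serine synthesis. Slc7a11, the cystine transporter, was at background (0.29). Sterol and fatty acid synthesis genes passed in 26 of 28, led by Scd2 (9.35 ± 0.19), Hmgcs1 (8.80 ± 0.42) and Fdps (8.64 ± 0.30). Abca1, which exports cholesterol, did not pass on any array (0.86). Fatty acid oxidation genes passed in 17 of 20. Acadl stood apart at 9.23 ± 0.14, and the next were Hadh (6.47 ± 0.20), Etfa (6.40 ± 0.07) and Etfb (6.12 ± 0.08). The regulators Ppargc1a (0.08) and Ppara (0.43) were at background.

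Citric acid cycle and respiratory genes passed in 29 of 31 cases, with a median of 7.31 and a median SD of 0.067. Cox6a1 (10.48 ± 0.05), Slc25a5 (10.18 ± 0.05) and Cox5a (9.89 ± 0.05) led, and the heart and muscle form Cox7a1 was at background (0.44). All 76 mitochondrial ribosomal proteins and 42 of 44 subunits of complex I were above background, with medians of 5.46 and 6.86.

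The PI3K, AKT and mTOR pathway, the target of the study's inhibitors, was measured in its uninhibited state. Of 31 genes, 28 were above background on all arrays, at a median of 4.43 and with small spread (median SD 0.123). Fkbp1a, the protein through which rapamycin acts, read 8.41, 8.20 and 8.17. Mtor itself read 3.80, 4.16 and 3.78, its partners Rptor 3.40 ± 0.11 and Rictor 3.17 ± 0.06, and the activator Rheb 6.61 ± 0.15. Of the catalytic PI3K genes Pik3cd, the leukocyte form, read 7.54 ± 0.12, Pik3ca 4.43 ± 0.15 and Pik3cg 4.0 ± 0.45. The brake gene Ddit4, which encodes REDD1, read 7.47 ± 0.05, and the sestrin genes Sesn1, Sesn2 and Sesn3 4.53 ± 0.11, 3.71 ± 0.25 and 4.78 ± 0.31. Deptor and Rps6kb2 passed on 1 array each and Rragd (0.41) on none. Translation factors passed in 25 of 26 cases and ribosome biogenesis genes in 21 of 21, led by Npm1 (10.14 ± 0.03) and Ncl (9.04 ± 0.11). All 30 proteasome and endoplasmic reticulum genes passed, and 28 of them lay in the top 5%, led by Hspa8 (10.61 ± 0.03) and Hspa5 (9.36 ± 0.07).

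On day 6 the genes of division were still read: 26 of 26 DNA replication genes, 24 of 24 mitotic genes and 24 of 29 cyclin, CDK and inhibitor genes were above background. Mcm7 (7.97 ± 0.21), Mcm6 (7.43 ± 0.23), Fen1 (7.0 ± 0.18) and Mcm5 (6.86 ± 0.25) led replication, and Top2a (8.24 ± 0.15), Cdc20 (7.47 ± 0.17), Ube2c (7.42 ± 0.16) and Birc5 (7.27 ± 0.22) led mitosis. Pcna read 9.54 ± 0.02, Cdk6 8.29 ± 0.16 and Ccnd2 8.22 ± 0.12, and Cdkn1a, which encodes the inhibitor p21, 7.81 ± 0.09. Of BCL2 family and caspase genes 18 of 20 passed, led by the survival genes Mcl1 (7.12 ± 0.09) and Bcl2 (6.90 ± 0.18). Of antioxidant genes 17 of 18 did, led by Txn1 (9.61 ± 0.03) and Sod1 (8.91 ± 0.08).

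Antigen presentation and interferon-induced genes split. Of 28, 22 were above background. B2m (11.19 ± 0.05), Ifitm1 (11.10 ± 0.13), H2-K1 (10.22 ± 0.05) and H2-D1 (9.25 ± 0.06) lay in the top 1% of genes, whereas Rsad2 (0.76), Ifit1 (0.64), Ifit3 (0.43) and Mx2 (0.40), which type I interferon induces, were above background on no array. Among S100, annexin and galectin genes 14 of 16 passed, with Lgals1, S100a10 (10.01 ± 0.06), Lgals3 (9.84 ± 0.68) and S100a6 (9.84 ± 0.07) leading. The granulocyte genes S100a8 (0.25) and S100a9 were at background. Xist, the RNA of the inactive X chromosome, read 7.97, 8.21 and 8.09, and the Y-linked genes Uty (0.12), Kdm5d (0.11) and Eif2s3y (-0.01) were at background on all 3 arrays.

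**Figure D4:**
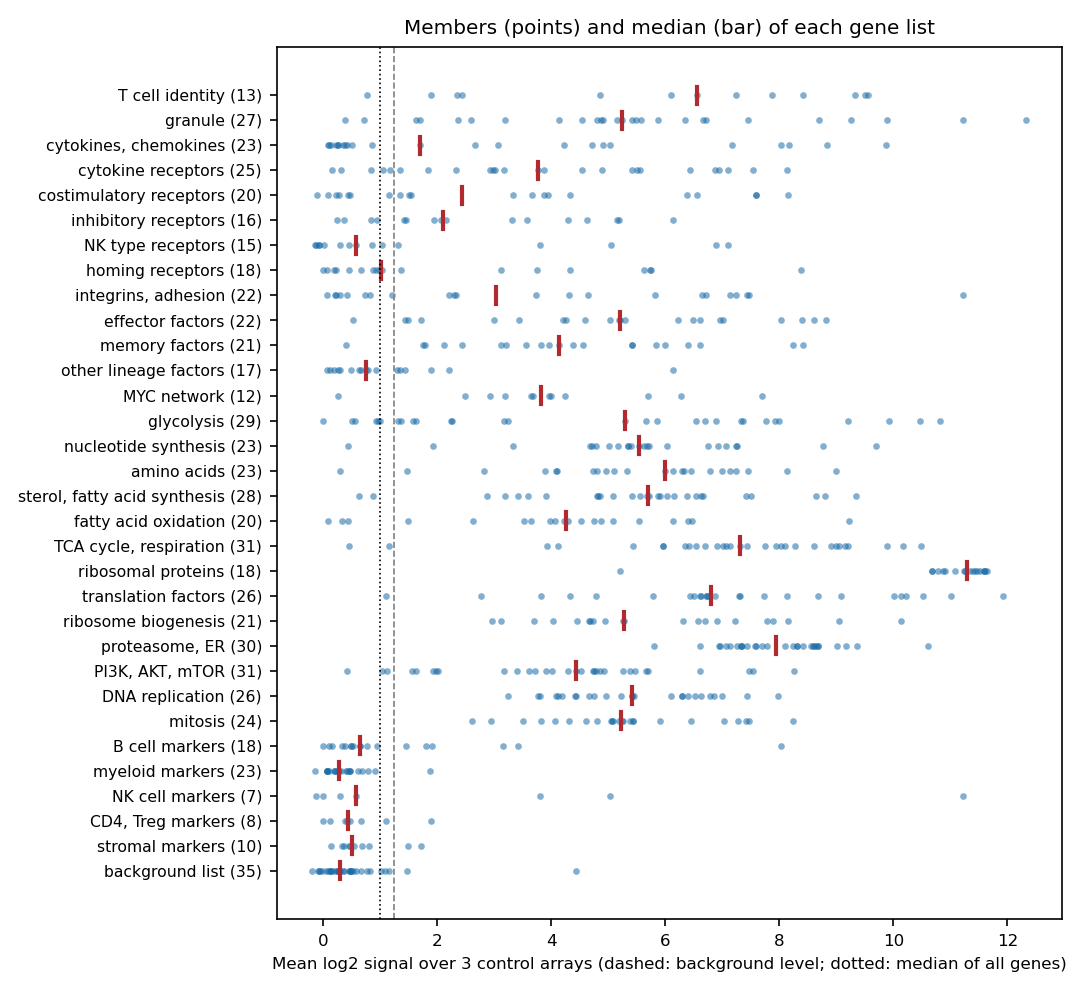
Mean log2 signal over the 3 control arrays (horizontal axis) of the members of 32 gene lists, with each list's median as a bar, the number measured in brackets, the background level as a dashed line and the median of all genes as a dotted line. The ribosomal protein list lay highest with a median of 11.29. Its 18 measured genes are a smaller set than the family of 47 described in the text. The myeloid markers, with 1 of 23 above background on all arrays, lay with the background list.

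Few genes differed widely between the 3 spleens. Among the 8390 genes whose mean was above background, 30 had an SD over 1, and signals of spleens 1 and 2 were more than 2-fold apart in 166 of the genes above background, against 63 for spleens 1 and 3 and 77 for spleens 2 and 3. The 20 genes with the largest SD (1.12 to 2.22) fell mostly into 2 patterns. Highest in spleen 1 and lowest in spleen 2 were Serpinb6b, Eomes, Fasl, Gzmd, Gzme, Gzmg, the T cell kinase gene Txk (4.69, 2.00 and 3.60), the prostaglandin receptor gene Ptger3 (5.0, 2.70 and 4.25), Enpp4 (4.56, 2.30 and 3.77) and the interferon-inducible gene Ifi209 (5.87, 3.66 and 5.22). Highest in spleen 2 and lowest in spleen 1 were Jchain, Ighm, Iglv1, the light chain segment Igkv8-30 (1.84, 4.31 and 2.51), the tetraspanin gene Cd81 (1.34, 5.27 and 2.62), Ermn (0.67, 3.27 and 1.63) and the sialyltransferase gene St8sia4 (1.85, 3.86 and 1.98). Outside both were Egr1, another early gene of receptor stimulation (3.53, 4.92 and 1.46), Usp18 (3.39, 1.10 and 1.02) and the gamma chain segment Trgv1 (3.21, 4.97 and 5.30).

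A spleen has only 1 control array, so whether such differences belong to the spleen was tested on the 6 arrays of inhibitor-treated cells of the same spleens, which had no part in choosing these genes. limma's moderated F test over the spleens, with treatment as a covariate and Benjamini-Hochberg adjustment over 8390 genes, called 236 genes (2.81%) at adjusted p below 0.05. It called 18 of the 20 most variable genes and 53 of the 100 most variable. The adjusted p was 0.0174 for Jchain, Cd81, Eomes, Fasl and Serpinb6b, and 0.168 for Gzmg and 0.152 for Usp18, the 2 not called. Gzmg was above the background level on only 1 of those 6 arrays (1.91, rapamycin, spleen 1) and Usp18 on 2 of them, both of spleen 1, so both were tested largely on values at background. The order of the spleens was the same in control, rapamycin and KU-0063794 arrays for 16 of the 20 genes, against 1359 of all 8390 (16.2%). Eomes, for example, read 6.62, 3.99 and 5.22 with rapamycin and 6.23, 3.53 and 5.14 with KU-0063794 in spleens 1, 2 and 3. A spleen, its culture and any array batch that shares its number cannot be told apart. The calls rest on 2 residual degrees of freedom. Leaving out any 1 of the 6 arrays (rapamycin or KU-0063794, spleen 1, 2 or 3) ended all of them by limma, with the smallest adjusted p then between 0.0570 and 0.192 and 1421 to 1839 genes at an unadjusted p below 0.05, against 2234 with all 6. Testing all 18193 genes also left 0 calls by limma, with 2579 genes below 0.05 unadjusted.

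The granule list had a median SD of 0.432 over the control arrays, against 0.137 for all genes above background. Of its 25 genes with a mean above background, 8 were called on the inhibitor arrays (Serpinb6b, Serpinb9, Fasl, Gzmd, Gzme, Gzmk, Nkg7 and Rab27a), against 2.81% of all genes. Of these 8 the order of spleens was the same in control and inhibitor arrays for Serpinb6b, Serpinb9, Fasl, Gzmk and Rab27a, the last being highest in spleen 3. Gzmd and Gzme were lowest in spleen 2 on the control arrays but in spleen 3 on the inhibitor arrays, and Nkg7 changed its highest spleen with KU-0063794. On the control arrays 19 of the 25 were highest in spleen 1, against 32.3% of all genes, and 18 lowest in spleen 2, against 36.7%. In spleen 2, 2 were highest, against 30.2%. Spleen 1 was also highest for 18 of the 25 with rapamycin and 14 with KU-0063794, against 34.2% and 26.7% of all genes. Of effector factors 6 of 21 were called: Eomes, Id2, Hopx, Bhlhe40, Fosl2 and Fos. Ifng was called too (adjusted p = 0.0202 by limma, highest in spleen 1 in all 3 groups of arrays), whereas Prf1 (0.0533), Gzmb (0.402) and Gzma (0.587) were not. Klrd1, highest in spleen 3, had an adjusted p of 0.0174, and Tnfrsf9 one of 0.0174. In the B cell list 3 of 6 were called, Jchain, Iglv1 and Ighm. The summed B cell signal given above, most of it from Ighm, runs opposite to the granule genes over the 3 spleens, and its part was not tested. Of the 42 ribosomal proteins limma called 0, which is near the 2.81% called over all genes. At an unadjusted limma p below 0.05 there was 1 of the 42, against 2234 of all 8390 genes, so fewer than that share.

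Replication and mitosis, 2 of the 3 proliferation lists, leaned another way on the control arrays. DNA replication genes were lowest in spleen 1 in 24 of 26 cases and mitotic genes in 22 of 24, against 32.3% of all genes, and mitotic genes were highest there in 0 cases. The list of cyclins, CDKs and inhibitors had 11 of 25 lowest in spleen 1 and a median difference of -0.06 log2. For replication and mitosis the differences were small, with medians of -0.31 and -0.26 log2 for spleen 1 minus the mean of spleens 2 and 3. With rapamycin these medians were -0.01 and 0.04, and with KU-0063794 -0.07 and 0.03. On those arrays limma called 0 genes of either list, against 2.81% of all genes. An unadjusted limma p below 0.05 was found for 3 of 26 replication and 7 of 24 mitotic genes, against 2234 of all 8390. Glycolytic genes leaned the other way on the control arrays, with 18 of 23 highest in spleen 1 and a median difference of 0.22, against 0.11 with rapamycin and 0.14 with KU-0063794. Of these genes 1, Slc16a1, was called, and it was lowest in spleen 1. With 1 control array per spleen, these leanings of the control arrays have no replicate and were not tested, and the array of spleen 1 also had the highest B1 repeat signal.

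**Figure D5:**
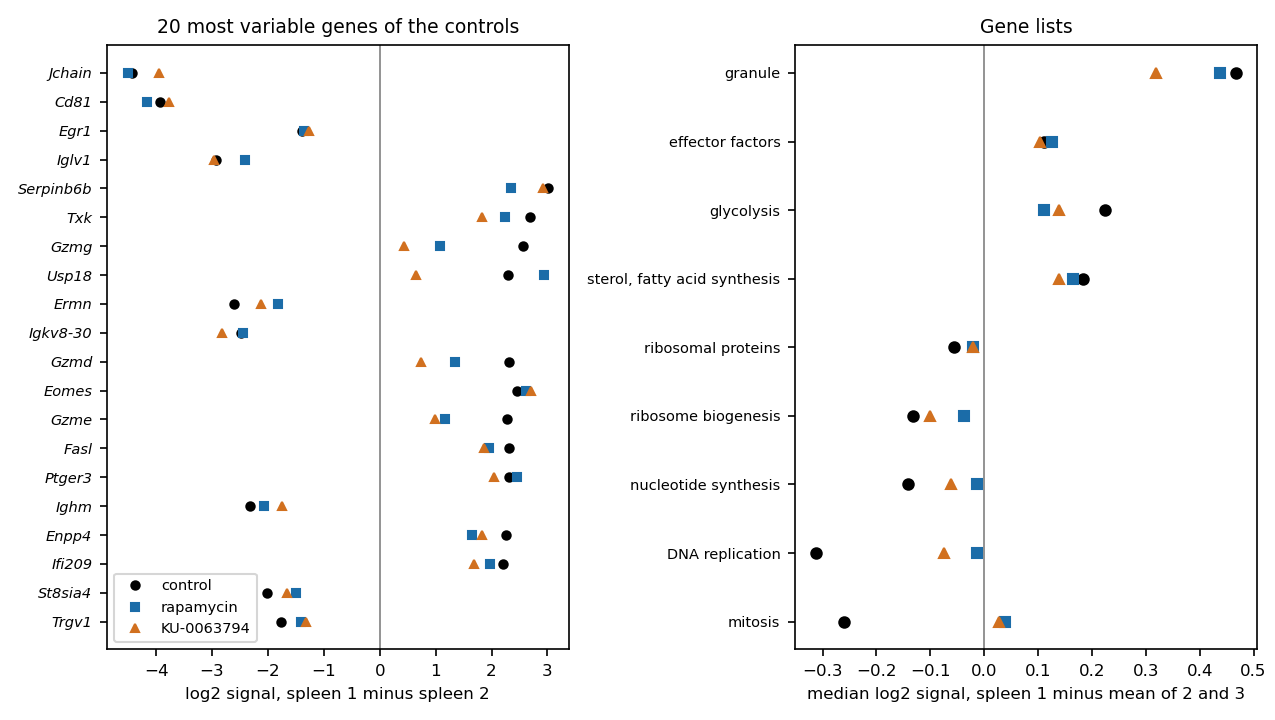
Left: log2 signal of spleen 1 minus spleen 2 for the 20 genes with the largest SD over the control arrays, in control, rapamycin and KU-0063794 cultures. Right: median over the genes of 9 lists of spleen 1 minus the mean of spleens 2 and 3. Jchain and Eomes kept their differences in all 3 kinds of culture, and the mitosis median was -0.26 on the control arrays but 0.04 and 0.03 on the others.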

How the data were processed

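RNA of 9 cultures was measured on Affymetrix whole-genome mouse arrays. The deposited values are log2 signals per probe set, made with Affymetrix Expression Console 1.3.1 per the submitters' processing notes; how background and scale were treated is not given in the sources used here. These values were used as deposited, with no further scaling. Of 45101 probe sets, 64 were controls, 34945 carried 1 gene symbol in the platform annotation and were used, and 932 with several symbols and 9160 not listed were left out; 34741 matched RefSeq by gene identifier. The control group is described with no contrast against the inhibitors. Of 992 names in 43 gene lists, 114 had no probe set with that symbol alone. Members and lists were chosen with earlier results of these data known. Named genes are the 30 with the highest signal, the 20 with the largest SD, the 4 highest and up to 4 undetected members of each list, and the members of the lists of T cell, effector, receptor, factor, glycolysis and mTOR genes and of sex-linked genes, of which the text prints a part. Spleens were compared with limma 3.58.1 (R 4.3.3; pandas 2.3.3) on the 6 inhibitor arrays, a procedure tested on simulated data. Arrays of 1 number share a spleen, per the design text. The number of arrays limits the precision. Alternatives covered the probe set, the level, the scaling, the test and each array left out.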

Additional observations from a re-analysis of the deposited data

How the results depend on the processing

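Of the 8067 genes above background, between 7959 and 8157 were counted with 1 control array left out. The count moved by more than 1.5 times in 1 setting, to 3113, where the level was the highest mean of its list (4.43, that of Mbp, with 1 of 8 probe sets high). Without Mbp, an alternative added after the data were seen, it was 8307. The level at that maximum moved 27 of 43 list counts, and other settings moved at most 3. The median over probe sets moved the percentile of 127 of 845 listed genes by over 10 points, and probe sets without a shared-sequence suffix that of 65. With the latter choice, genes named above as high stood much lower. Tmsb10 was at percentile 34.47, Tpt1 at 13.79, Id2 at 79.65, Btg1 at 55.76 and Ptpn2 at 55.83. The 236 genes that differed between spleens became 1321 with all 9 arrays and the replicate block as the tested term, 1946 with a trend and robust fit and 380 after quantile normalization. There were 0 by limma with no filter (2579 below an unadjusted 0.05) and 0 without each inhibitor array in turn. Arrays of 1 number share a spleen, so the replicate block is the spleen itself, and no treatment groups were compared. With 6 arrays the count of calls between spleens is not stable, and 1 array per spleen allows no test among the control arrays.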

Other observations

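Genes of other tissues show how low the unused part of the array lay. Of 39 olfactory receptor genes none was above background on any array (median 0.21), and of 20 beta defensins none (0.08). Of 32 vomeronasal receptors 1 passed on all 3 arrays (Vmn1r44, 1.83, with an SD of 0.0 and so a repeated value). Of 48 keratins 3 passed (highest Krt42, 3.88) and of 33 Hox factors 3 (highest Hoxc9, 2.04). Of 347 solute carriers 141 passed (40.6%) and of 37 kinesins 22 (59.5%), against 44.3% of all genes.

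Other T cell receptor segments, chosen after their values were seen, gave high signals in these cells, which carry a transgenic receptor. Trbv1 read 9.41, 9.03 and 9.21 at rank 114, Trav9d-3 8.30, 8.08 and 8.51 at rank 246, and the gamma chain segment Trgv4 6.04, 7.46 and 7.62. Other probe sets of these 3 symbols had means down to 2.65, 0.21 and 0.05. Which parts of the transcripts the probe sets cover is not given in the sources used here.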
